A study of Mus musculus with 2 samples.

Results

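The replication-dependent histone genes, which supply the linker histone H1 and the core histones H2A, H2B, H3 and H4 while DNA is copied, were followed in single-cell RNA of mouse embryonic brain tissue. The members were chosen by name: 67 of the 32285 genes in the deposited matrices carry a symbol that begins with Hist1h, Hist2h, Hist3h or Hist4h, and 61 of these reached a minimum of 20 UMIs summed over both libraries. A UMI is a unique molecular identifier, which marks 1 captured RNA molecule. The 61 members comprised 5 genes of type H1, 16 of H2a, 16 of H2b, 11 of H3 and 13 of H4. The 6 genes under the minimum had 0 to 16 UMIs, and 2 of them had none.

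The NTD library came from embryos with neural tube defects, whose dams were fed a low-folate diet and injected intraperitoneally with the folate antagonist MTX, at a dose of 1.5 mg per kg on gestational day 7.5. These embryos were described as small and delayed, mainly with malformed hindbrain or spina bifida. The control library is labelled as given normal saline, and normal embryos were those with a closed neural tube when closure was scored between embryonic days 9.5 and 10.5. No source used here gives the diet of the control dams, or the stage, number, pooling and sex of the sequenced embryos. Each group held 1 library, so no difference between NTD and control has a replicate check, no test was made, and every interval below covers counting error only.

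Most messenger RNAs of these genes are unusual in that they have no introns and end in a stem-loop rather than a poly(A) tail. The stem-loop binding protein SLBP holds that structure through processing, translation and decay, and the transcripts are normally abundant during DNA synthesis and removed when it ends. Most of the genes lie in clusters, and some also make transcripts with a poly(A) tail, in particular in cells that have stopped dividing. The libraries were made from polyadenylated RNA with a 3′ kit, so a transcript that ends in the stem-loop is not the intended template.

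Of the 61 members, 50 lay on chromosome 13, 8 on chromosome 3, 2 on chromosome 11 and 1 on chromosome 6, and 57 had a single exon in every annotated transcript (GENCODE M21, mouse build GRCm38). A stem-loop of 6 paired bases and a 4-base loop was found after the stop codon in 40 members, starting 22 to 59 bases after it. Among the 21 without one, 13 had an annotated transcript that ended within 2 bases of the stop codon, so the search had no sequence to read there. The most common stem-loop occurred in 23 members of types H1, H2a, H2b and H3, and another occurred in 7 members, all H4. The sites of 7 members are shown because the results below turn on these genes and because they carry 5 of the 6 cores found, with the stem-loop in capitals, in DNA letters on the transcript strand, and with the gene's coordinates:
Hist1h1e (H1, chr13:23620629-23622558, minus strand): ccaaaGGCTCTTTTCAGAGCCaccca
Hist1h2ae (H2a, chr13:23570517-23571220, minus strand): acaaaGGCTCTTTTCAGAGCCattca
Hist2h2ac (H2a, chr3:96220361-96220880, minus strand): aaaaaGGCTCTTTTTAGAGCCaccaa
Hist1h2be (H2b, chr13:23583670-23621124, minus strand): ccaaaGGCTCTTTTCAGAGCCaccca
Hist1h3c (H3, chr13:23744973-23745602, minus strand): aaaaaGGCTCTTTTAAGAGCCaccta
Hist1h4d (H4, chr13:23581598-23582735, plus strand): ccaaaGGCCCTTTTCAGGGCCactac
Hist1h4i (H4, chr13:22040636-22041362, minus strand): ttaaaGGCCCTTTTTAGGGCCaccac

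The promoters of 2 of these members are shown because most members differed together between the libraries. They are RefSeq sequences of build GRCm38.p6, 300 bases each, and the capitals mark CCAAT and TATAAA on either strand (ATTGG and TTTATA on the other).
Hist1h3c promoter (chr13:23745472-23745771, minus strand): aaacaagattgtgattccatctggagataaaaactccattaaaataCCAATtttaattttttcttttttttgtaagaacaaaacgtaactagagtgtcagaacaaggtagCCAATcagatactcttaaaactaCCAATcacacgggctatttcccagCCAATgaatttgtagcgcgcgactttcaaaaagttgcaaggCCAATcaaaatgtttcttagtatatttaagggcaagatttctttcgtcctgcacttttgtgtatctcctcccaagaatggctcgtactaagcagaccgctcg
Hist1h4d promoter (chr13:23581318-23581617, plus strand): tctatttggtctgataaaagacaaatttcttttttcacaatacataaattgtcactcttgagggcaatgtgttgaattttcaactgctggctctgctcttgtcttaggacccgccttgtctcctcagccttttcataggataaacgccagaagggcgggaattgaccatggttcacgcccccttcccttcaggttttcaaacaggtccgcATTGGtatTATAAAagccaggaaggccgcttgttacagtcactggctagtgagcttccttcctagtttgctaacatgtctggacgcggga
The table held a promoter for 55 of the 61 members. A CCAAT match on either strand occurred in 46 of these 55 (83.6%), against 10248 of 27025 promoters of all genes (37.9%). Every promoter without a match belonged to an H4 gene, and of the H4 promoters only those of Hist1h4a, Hist1h4c and Hist1h4d had one. A TATAAA match occurred in 33 of the 55 (60.0%), against 3827 of 27025 (14.2%). The motifs were searched separately and their matches may share a letter. A match describes the letters and is no evidence of binding.

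The NTD library held 19056 barcodes with a median of 2456 UMIs, and the control library 18572 with a median of 2234. After removal of called doublets, 16657 NTD cells with 46827092 UMIs and 15530 control cells with 38625058 UMIs were kept. The libraries shared 105 barcode sequences. The 21 clusters included 17 that could be named from markers, and beside neural cells the labelled brain tissue held mesenchyme or fibroblast-like cells (2881 NTD and 2475 control) and skeletal or cardiac muscle-like cells (61 NTD and 427 control). RNA of red blood cells reached other classes: after thinning to 1500 UMIs, the erythroid marker list gave 20.2 UMIs per cell in NTD and 18.5 in control neural progenitor-like cells, and 20.1 in NTD and 16.8 in control neuron-like cells. The erythroid-like cells themselves had 59.8 in NTD and 41.0 in control.

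Histone RNA took a larger share of the NTD library than of the control library. The 61 members together had 65916 UMIs in the kept NTD cells and 25237 in the kept control cells. Scaled to library size, this was 1408 CPM (UMI counts scaled to a common library size, interval 1397 to 1418) in NTD and 653 CPM (645 to 661) in control, a ratio of 2.15-fold (log2 1.11, interval 1.09 to 1.13). Per kept cell, the mean was 3.96 histone UMIs in NTD and 1.63 in control. All 5 histone types were higher in NTD: H1 had 288 CPM in NTD and 135 in control, H2a 359 and 152, H2b 269 and 130, H3 186 and 82.8, and H4 306 and 154. The ratio was highest for H2a (2.36-fold) and lowest for H4 (1.99-fold), so the split of histone UMIs between types was close in the libraries, with H2a at 25.5% in NTD and 23.2% in control and H4 at 21.7% in NTD and 23.6% in control.

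Across single members, 50 of the 61 (82.0%) were at least 1.5-fold higher in NTD, against 5.27% of the 19788 genes with at least 20 UMIs over the kept cells, and 0 of 61 were at least 1.5-fold lower, against 21.8% of all measured genes. The median log2 ratio of the members was 1.13, beside -0.24 over all measured genes. Scaling by TMM (trimmed mean of M values) adds 0.23 to every log2 ratio, which brings the median of all genes near 0. The counting interval lay above 0 for 54 members and held 0 for 7, and 60 of the 61 had a ratio above 0. For intervals and for sign the share over all measured genes is not given here, so these counts describe the members only. The exception was Hist4h4, an H4 gene outside the large clusters, with 88 UMIs in NTD and 80 in control (log2 -0.14, interval -0.59 to 0.31), a direction that turns with TMM scaling. In all, 29 members had at least 10 CPM in either library, and these held 92.7% of the histone UMIs in NTD and 91.6% in control. The other 32 members ranged from 0.683 to 9.61 CPM in NTD and from 0.155 to 6.58 CPM in control, and 24 of them were at least 1.5-fold higher in NTD.

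**Figure D1:**
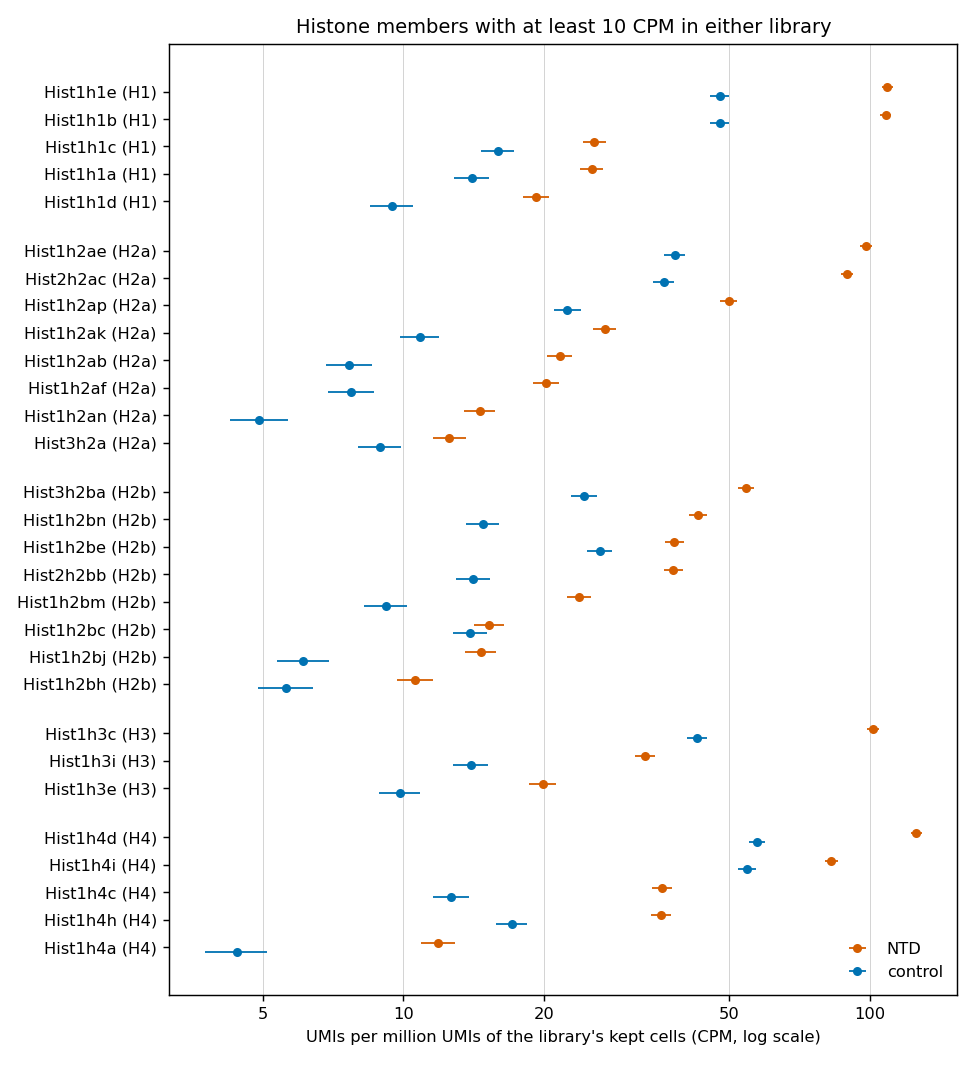
Level of each histone member with at least 10 CPM in either library, in CPM on a log axis, with NTD in orange above control in blue and bars for exact Poisson 95% intervals. NTD lies to the right of control for all 29 members, and the intervals meet only for Hist1h2bc.

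The linker histone genes H1 compact DNA between nucleosomes. Hist1h1e had 109 CPM in NTD and 47.7 CPM in control (log2 1.19), and Hist1h1b had 108 CPM in NTD and 47.7 CPM in control (log2 1.18). Hist1h1c had 25.7 CPM in NTD and 15.9 CPM in control (log2 0.69). The other H1 genes, Hist1h1a and Hist1h1d, lay between these ratios, at log2 0.85 and 1.03, and all 5 H1 members were at least 1.5-fold higher in NTD.

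Genes of type H2a encode core histones that pair with H2B. Hist1h2ae had 98.2 CPM in NTD and 38.2 CPM in control (log2 1.36). Hist2h2ac had 89.4 CPM in NTD and 36.2 CPM in control (log2 1.30). Of the 16 H2a members, 12 were at least 1.5-fold higher in NTD, and the named ones ranged from log2 0.49 for Hist3h2a, at 12.6 CPM in NTD and 8.91 in control, to 1.57 for Hist1h2an, at 14.6 CPM in NTD and 4.92 in control. Hist1h2ap had 49.8 CPM in NTD and 22.5 CPM in control, but 92.4% of its 90-base transcript windows also occurred in another gene, so reads of near-identical H2a copies may be split or lost. Hist1h2ak, Hist1h2ab and Hist1h2af had log2 ratios of 1.32, 1.50 and 1.39.

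Type H2b showed the widest spread among the members named singly. Hist1h2bn had 42.9 CPM in NTD and 14.8 CPM in control (log2 1.53), and Hist2h2bb had 37.9 CPM in NTD and 14.1 CPM in control (log2 1.43). At the other end, Hist1h2bc had 15.3 CPM in NTD and 13.9 CPM in control (log2 0.13, interval -0.03 to 0.30), the only interval among the 29 members that held 0. Hist1h2be had 38.1 CPM in NTD and 26.4 CPM in control (log2 0.53), on a locus of the minus strand whose annotated span overlaps Hist1h1e. Hist3h2ba, Hist1h2bm, Hist1h2bj and Hist1h2bh had log2 ratios of 1.15, 1.37, 1.26 and 0.92, and 12 of the 16 H2b members were at least 1.5-fold higher in NTD.

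The genes of types H3 and H4 encode the histones at the centre of the nucleosome. Hist1h3c had 102 CPM in NTD and 42.6 CPM in control (log2 1.26), and Hist1h3i and Hist1h3e had log2 ratios of 1.24 and 1.02. Hist1h4d, the member with the most UMIs in both libraries, had 5898 UMIs or 126 CPM in NTD and 2215 UMIs or 57.3 CPM in control (log2 1.13, interval 1.06 to 1.21). Hist1h4i had nearly as many UMIs as Hist1h4d in control but not in NTD: 82.7 CPM in NTD and 54.5 CPM in control (log2 0.60). Hist1h4c had 35.9 CPM in NTD and 12.7 CPM in control, Hist1h4h 35.7 in NTD and 17.1 in control, and the log2 ratio of Hist1h4a was 1.43. In all, 10 of 11 H3 members and 11 of 13 H4 members were at least 1.5-fold higher in NTD.

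The near-identical copies limit what a single member's value shows. With a window of 90 bases, 57 of the 61 members shared at least 1 window with another gene and 24 shared more than 50% of theirs, among them Hist1h2bn (60.6%) and Hist1h3i (72.7%), so their single values are uncertain. Among the 37 members that shared at most 50%, 29 were at least 1.5-fold higher in NTD.

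Histone RNA was higher in NTD in every cell class with at least 100 cells in each library. Among the smaller classes, the trophoblast, yolk sac or liver-like class, with 5 NTD cells, had an interval that held 0 (log2 0.54, interval -0.48 to 1.32). In the 11 classes with at least 100 cells in each library, NTD was between 1.66-fold (cluster 0) and 2.55-fold (neuron-like cells) higher, and in all 15 clusters of that size the interval lay above a log2 ratio of 0. Neural progenitor-like cells, the dividing cells that line the neural tube, had 1317 CPM in NTD and 581 CPM in control (log2 1.18, interval 1.13 to 1.23). Most of the NTD cells of that class lay in cluster 2 (2736 of 4488) and most of the control cells in cluster 3 (1419 of 2367). Neuron-like cells had 1232 CPM in NTD and 483 CPM in control (log2 1.35, interval 1.28 to 1.42). Mesenchyme or fibroblast-like cells, which came mostly from cluster 1 in NTD (2861 of 2881 cells) and from cluster 7 in control (1769 of 2475), had 1255 CPM in NTD and 570 in control.

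The members were counted in the same way within classes. In neural progenitor-like cells 42 of the 51 members with at least 20 UMIs there were at least 1.5-fold higher in NTD (5.9% of all measured genes) and 0 were that much lower (14.1%), with a median log2 ratio of 1.18 beside -0.18 over all genes. In neuron-like cells it was 40 of 45 members higher (9.06%) and 0 lower (15.8%), with a median of 1.43 beside -0.16. In cluster 0 it was 33 of 50 higher (4.07%) and 0 lower (17%), with a median of 0.76 beside -0.14. A gene measured only through the NTD library had to be high there, so these counts describe the members and no more.

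Within a library, the histone level differed less between progenitor-like and neuron-like cells than genes of the cell cycle did. Leaving out cluster 0, it ran from 1092 to 1843 CPM over 10 classes in NTD and from 483 to 895 CPM in control, with the erythroid-like cells at the top in both. The highest class was 1.69-fold above the lowest in NTD and 1.85-fold in control. For the S list, 40 genes of DNA replication with no histone gene among them, this spread was 1.65-fold in NTD and 2.49-fold in control. Neural progenitor-like cells exceeded neuron-like cells by 1.07-fold in NTD (log2 0.10, interval 0.06 to 0.13) and by 1.20-fold in control (log2 0.27, interval 0.19 to 0.34). The S list differed more between these classes: it had 3863 CPM in progenitor-like and 2350 CPM in neuron-like cells of NTD, a 1.64-fold difference, and 3848 and 1755 CPM in control, a 2.19-fold difference. Top2a, a topoisomerase of dividing cells, was 2.17-fold higher in progenitor-like than in neuron-like cells in NTD and 3.61-fold in control. Kept doublets gave the histone ratio of progenitor-like over neuron-like cells a log2 value of 0.29 in NTD and 0.64 in control, where a cluster named neuron-like had a median of 4938 UMIs per cell in NTD and 5080.5 in control.

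**Figure D2:**
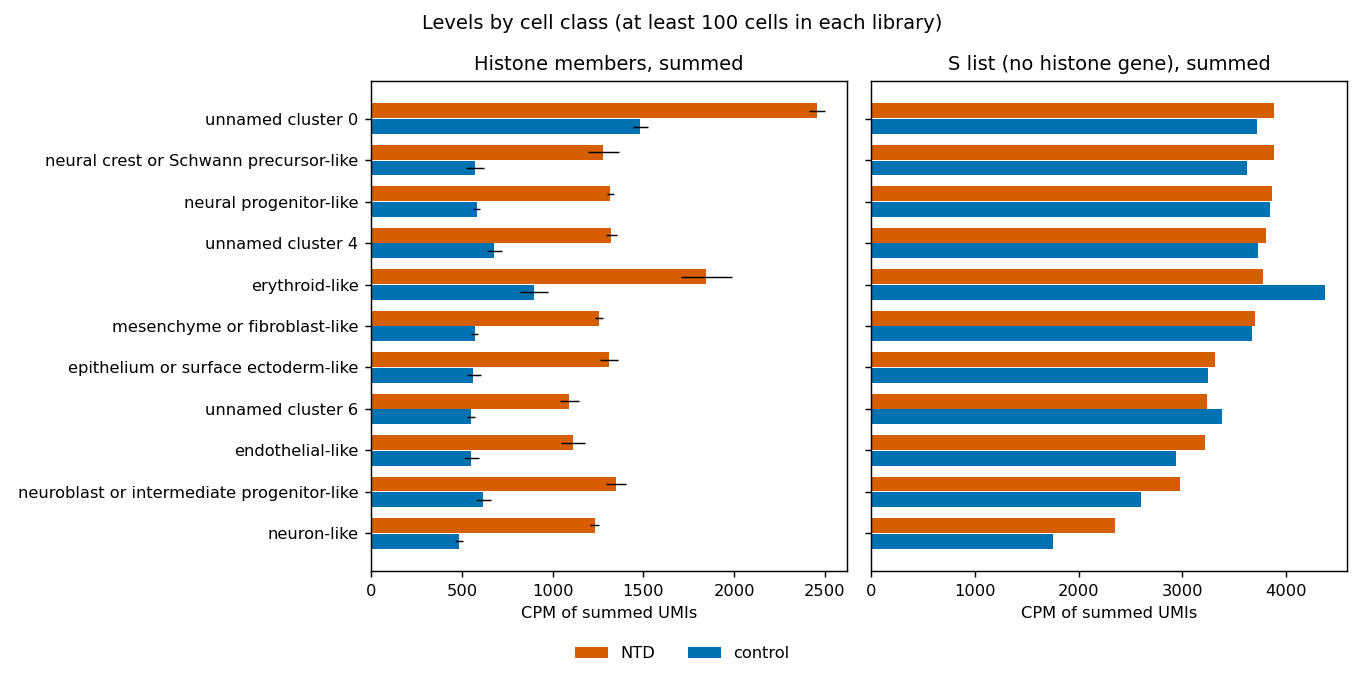
Summed level of the 61 histone members (left, with exact Poisson 95% intervals) and of the 40 genes of the S list (right) in each class with at least 100 cells per library, in CPM, NTD in orange above control in blue. The histone bars differ between libraries in every class, while the S list bars of neural progenitor-like cells are 3863 CPM in NTD and 3848 CPM in control.

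In neural progenitor-like cells the lists of cycling genes were at similar levels in the libraries, while the histone genes were not. There the S list was at 3863 CPM in NTD and 3848 CPM in control, and the G2/M list, 52 genes of mitosis, at 9001 CPM in NTD and 8695 CPM in control. At least 1.5-fold higher were 1 of the 40 S list genes and 2 of the 52 G2/M genes (5.9% of all measured genes), and 0 were that much lower (14.1%). These were Pcna, and Hmgb2 and Ube2c with log2 ratios of 0.72 and 0.69. Pcna, the sliding clamp of the replication fork, was at 256 CPM in NTD and 161 CPM in control. Mki67, a protein of dividing cells, was at 122 CPM in NTD and 140 CPM in control, and Top2a at 606 CPM in NTD and 742 CPM in control. A UMI of Mki67 or Top2a was found in 78.8% of NTD and 74.7% of control progenitor-like cells, and at 1500 UMIs per cell in 61.5% in NTD and 65.9% in control. In neuron-like cells the S list was higher in NTD, at 2350 CPM in NTD and 1755 CPM in control. Among neuron-like cells the thinned share was 41.2% in NTD and 32.8% in control, and the part of background in these shares was not tested.

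Histone UMIs were found in similar shares of progenitor-like and neuron-like cells. A histone UMI was present in 96.3% of NTD neural progenitor-like cells (median of 2531 UMIs per cell) and in 96.1% of NTD neuron-like cells (median 2622). In control it was 75.9% of progenitor-like cells (median 2220) and 73.9% of neuron-like cells (median 2647). Thinned to 1500 UMIs, the share was 86.3% of NTD progenitor-like and 84.2% of NTD neuron-like cells, and 61.1% and 53.7% in control. No barcodes without cells were used here, so background was not measured, and how much of either share is background was not tested. At that depth progenitor-like cells held 2.13 histone UMIs in NTD and 0.947 in control, and neuron-like cells 1.94 in NTD and 0.780 in control.

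Cluster 0 stood apart from every named class. Its 2684 NTD and 2839 control cells had the fewest UMIs, with medians of 1738 in NTD and 1130 in control, and its markers were split between 7 of red blood cells and 6 of neurons, so it was given no name. Its histone level was 2455 CPM in NTD and 1483 CPM in control (log2 0.73, interval 0.68 to 0.77), the highest of all classes with at least 100 cells in each library. Of the 29 members named singly, 24 were highest there in NTD and 27 in control. For Hist1h4d the level in cluster 0 was 229 CPM in NTD and 130 CPM in control, while the other classes ran from 84.7 to 170 CPM in NTD and from 40.8 to 63.7 CPM in control. Ribosomal protein genes took 20.6% of the UMIs of cluster 0 in NTD and 18.3% in control, against 11.6% in NTD and 7.37% in control in neural progenitor-like cells, and their part in the histone level was not tested. Without cluster 0, the histone total was 1279 CPM in NTD and 569 CPM in control (2.25-fold). The erythroid list gave 35.8 thinned UMIs per cell of cluster 0 in NTD and 46.6 in the 503 control cells deep enough, and its part was likewise not tested.

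Of the classes compared, the mix of members was closest to that of cluster 0 in neuron-like cells, with other classes not far behind. The share of each member among all histone UMIs in neuron-like cells and in cluster 0 had a Pearson r of 0.990 in NTD and 0.974 in control over the 61 members, which share their library and are not independent. For neural progenitor-like cells it was 0.983 in NTD and 0.944 in control, and 6.24% of the histone UMIs in NTD and 11.9% in control would have to be reassigned to other members to match cluster 0. Mesenchyme or fibroblast-like cells had r of 0.986 in NTD and 0.958 in control, and endothelial-like cells 0.985 in NTD and 0.969 in control. Epithelium or surface ectoderm-like cells had 0.983 in NTD and 0.958 in control. Erythroid-like cells were farthest from cluster 0 of the classes compared, with r of 0.967 in NTD and 0.867 in control. There 10.8% in NTD and 18.4% in control would have to be reassigned. Erythroid-like cells held only 673 histone UMIs in NTD and 562 in control, against 17337 and 3761 in progenitor-like cells. Few UMIs alone lower r and raise the share to reassign, and this part was not tested. Between the libraries, 8.22% would have to be reassigned, beside the 2.15-fold difference in amount.

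Histone UMIs hardly differed between cells with few and with many S list UMIs. In neural progenitor-like cells thinned to 1500 UMIs, NTD cells with 0 to 2, 3 to 5, 6 to 8 and 9 or more S list UMIs held 2.06, 2.07, 2.15 and 2.25 histone UMIs per cell. The control cells held 0.927, 0.919, 0.955 and 1.01 in the same order. From the lowest to the highest stratum the log2 difference was 0.12 in NTD (interval 0.01 to 0.24) and 0.12 in control (interval -0.12 to 0.36). Counts per cell spread hardly more than random sampling gives. The variance of histone UMIs over their mean was 1.12 in NTD and 0.995 in control progenitor-like cells, against 1 for Poisson counts. For the S list it was 1.36 in NTD and 1.69 in control. The S list had more UMIs per cell than the histone members, and at equal relative spread this value rises with the mean. The values of the histone members and of the S list are therefore not on a like scale.

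**Figure D3:**
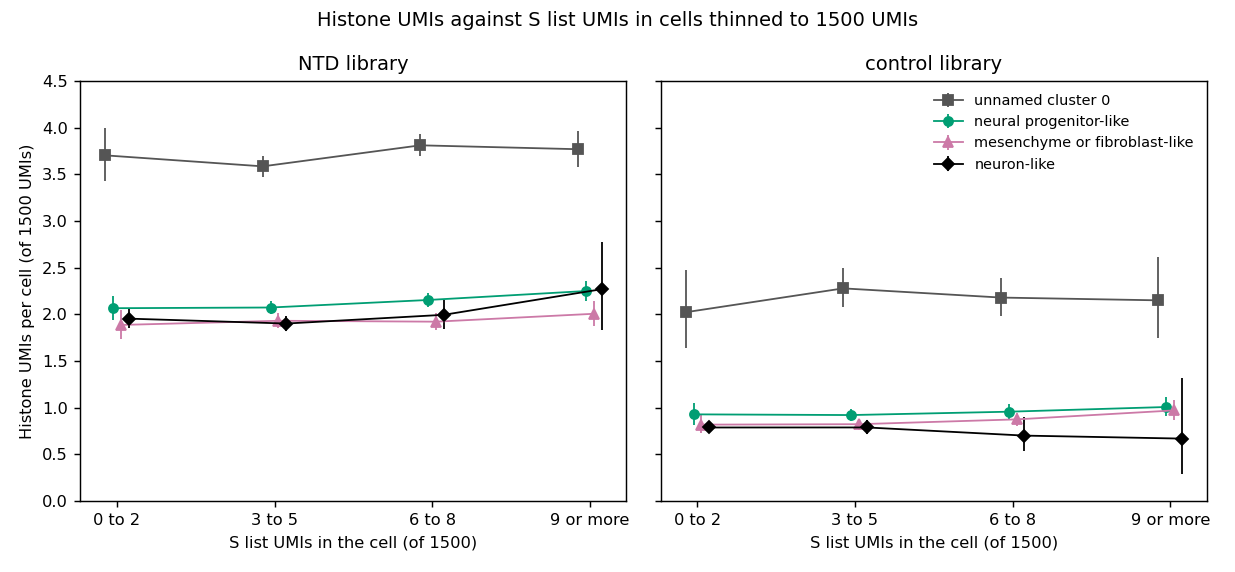
Histone UMIs per cell against the number of S list UMIs in the same cell, for cells thinned to 1500 UMIs in 4 classes, with the NTD library on the left and the control library on the right and exact Poisson 95% intervals. Neural progenitor-like cells run from 2.06 to 2.25 in NTD and from 0.919 to 1.01 in control, and the control neuron-like cells with 9 or more S list UMIs are only 12.

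Histone levels differed little between called phases of the cell cycle. Phases were called in 16657 NTD and 12022 control cells, as 3508 control and 0 NTD cells had too few UMIs for thinning. The calls put 81.8% of these NTD and 68.7% of these control cells in G2/M. Near the boundary between phases lay 750 NTD and 901 control cells, so the calls are weak and no rate of cycling is read from them. In NTD progenitor-like cells the histone level was 1374 CPM in S, 1309 CPM in G2/M and 1243 CPM in G1 (S over G1 log2 0.14, interval 0.01 to 0.28). In control progenitor-like cells it was 610 CPM in S, 566 CPM in G2/M and 622 CPM in G1 (S over G1 log2 -0.03, interval -0.26 to 0.21). Over all cells, S over G1 had a log2 ratio of 0.20 in NTD (interval 0.15 to 0.26) and 0.20 in control (interval 0.12 to 0.27), and G2/M over G1 had 0.26 in NTD and 0.18 in control, with intervals above 0. Those cells mix classes, and phases are not spread evenly over classes. In progenitor-like cells the interval in NTD reached 0 when only higher phase scores were used and when UMIs were thinned. Whether free RNA enters the phase scores was not tested.

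Cells with an extreme number of histone UMIs were rare, and most were in cluster 0. At 1500 UMIs per cell, 6 or more histone UMIs were found in 780 of 16657 NTD cells (4.68%) and in 16 of 12022 control cells (0.133%). Cluster 0 held 486 of the 780 NTD cells and 11 of the 16 control cells. Among NTD progenitor-like cells, the 124 such cells had 5.84 S list UMIs per cell, and the others also had 5.84. In cluster 0 of NTD, which held most of them, they had 5.87 against 5.83, and in neuron-like cells 3.8 against 3.59. The gap was larger in mesenchyme or fibroblast-like cells (6.66 against 5.61) and in cluster 4 (6.46 against 5.69). Over all NTD cells, which mix classes, it was 5.83 against 5.30. In control, 2336 of the 2839 cells of cluster 0 had too few UMIs to enter.

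The histone UMIs of a barcode went up with its total, and in proportion to it over part of the range. NTD progenitor-like cells with 1500 to under 2000 UMIs held 2.62 histone UMIs and those with 4000 or more held 5.92, which is 1456 and 957 CPM. Up to 3000 UMIs the level stayed close, at 1478 and 1453 CPM in the bins between. In control progenitor-like cells the bins from 1500 to under 2000 and of 4000 or more held 1.24 and 2.68, which is 706 and 395 CPM. In cluster 0 of NTD the level ran from 2290 to 2537 CPM over its 4 bins. In the bins from 1500 to under 2000 and of 4000 or more, neuron-like cells held fewer, with 2.40 and 5.26 in NTD and 1.02 and 2.12 in control. In bins of equal depth, NTD barcodes held more histone UMIs than control barcodes in both classes.

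**Figure D4:**
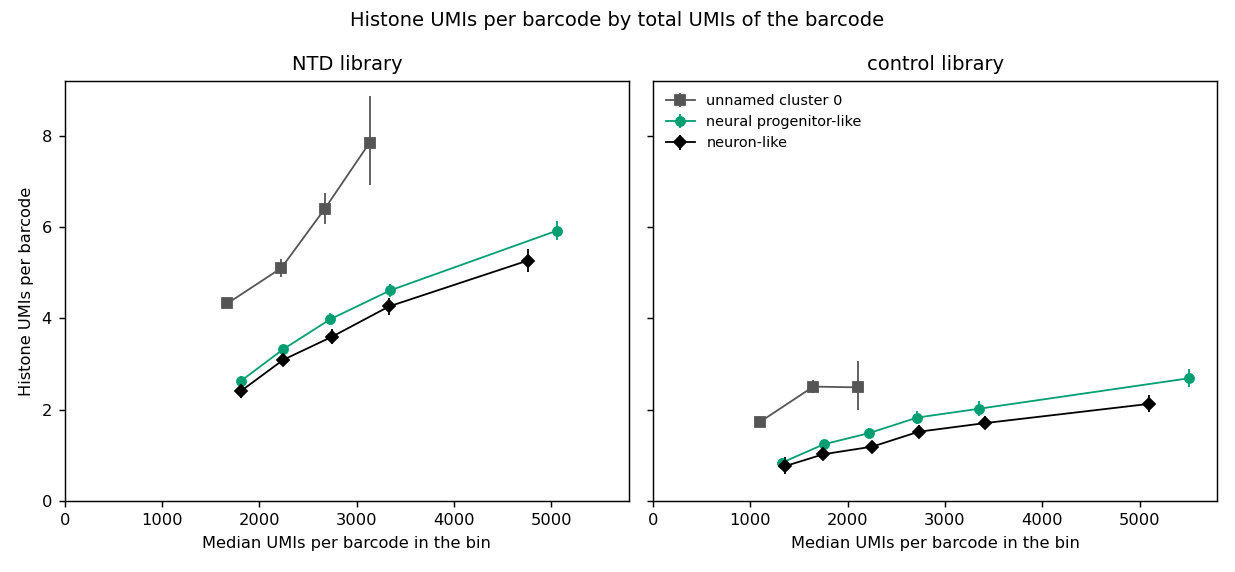
Histone UMIs per barcode against the median total UMIs of the barcodes, in bins of at least 20 barcodes, for cluster 0, neural progenitor-like and neuron-like cells, with NTD on the left and control on the right and exact Poisson 95% intervals. From 1500 to under 2000 UMIs the progenitor-like cells hold 2.62 histone UMIs in NTD and 1.24 in control. The neuron-like cells of that bin hold 2.40 in NTD and 1.02 in control.

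For a few members the counting interval of progenitor-like over neuron-like cells left out 0. Over the 38 members with at least 20 UMIs in these classes in each library, the median log2 ratio of progenitor-like over neuron-like cells was 0.09 in NTD and 0.19 in control. The interval lay above 0 in both libraries for 3 members, Hist1h2be, Hist1h2bh and Hist1h4i, and below 0 in both for none. The share of all measured genes with such intervals is not given here, so the count describes the members only. Hist1h4i had 86.3 CPM in progenitor-like and 61.3 CPM in neuron-like cells of NTD (log2 0.49, interval 0.33 to 0.66), and 59.5 and 36.1 CPM in control (log2 0.72, interval 0.45 to 0.99). Hist1h2be had log2 ratios of 0.57 (0.34 to 0.81) in NTD and 0.90 (0.51 to 1.32) in control, and Hist1h2bh had 0.45 (0.01 to 0.93) in NTD and 0.95 (0.08 to 1.98) in control. Of members given singly, Hist3h2ba and Hist3h2a had an interval below 0 in NTD. Hist3h2ba had -0.32 (-0.49 to -0.14) in NTD and -0.36 (-0.73 to 0.01) in control. Hist3h2a, which overlaps Trim17 on the same strand, had -0.39 (-0.75 to -0.02) in NTD and -0.44 (-1.05 to 0.17) in control. Hist1h4d had 0.02 (-0.10 to 0.15) in NTD and 0.50 (0.25 to 0.77) in control, and the type H4 as a whole 0.12 (0.04 to 0.20) in NTD and 0.50 (0.34 to 0.66) in control.

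The members were also set side by side by their annotated 3′ end. A poly(A) signal, AATAAA or ATTAAA, was found after the stop codon in 20 of the 61 members, 15 of which also had the stem-loop, and Hist1h2be, Hist1h2bh, Hist1h4i, Hist3h2ba and Hist3h2a were among the 20. The 20 members with a signal had a median log2 ratio of NTD over control of 0.64, and the 28 without one had 1.22. The 13 members annotated to at most 2 bases after the stop codon, where no signal could be read, were left out and had a median of 1.24. At least 1.5-fold higher in NTD were 12 of the 20 with a signal and 27 of the 28 without one. Summed, the members with a signal had 25992 UMIs in NTD and 11314 in control (log2 0.92), and the 28 without one had 26113 in NTD and 9291 in control (log2 1.21). Longer annotated 3′ ends hold the signal more often by their length alone, the grouping was chosen after the values were seen, and no test was made of it. The median log2 ratio was 1.11 for the 40 members with a stem-loop and 0.91 for the 8 without one whose annotation went past the stop codon by over 2 bases.

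**Figure D5:**
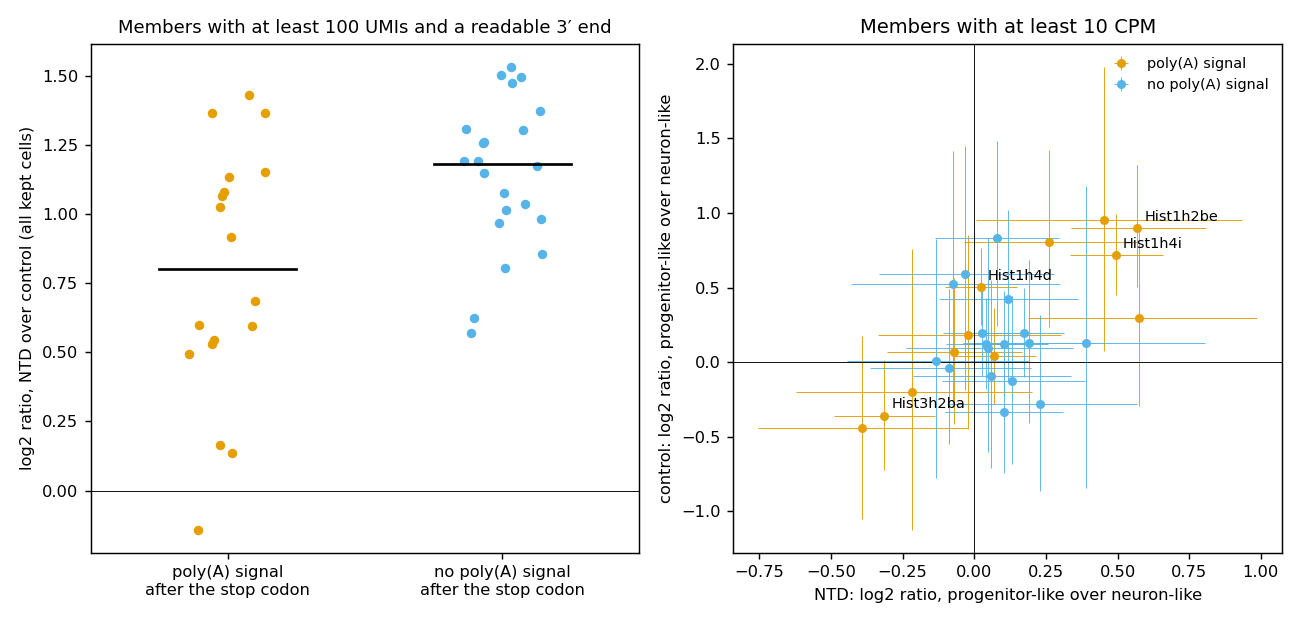
Left, log2 ratio of NTD over control for the members with at least 100 UMIs in the kept cells and over 2 annotated bases after the stop codon, split by a poly(A) signal there, with lines at the medians of 0.80 (18 members with a signal) and 1.18 (22 without). Right, log2 ratio of neural progenitor-like over neuron-like cells in NTD (horizontal) and control (vertical) for members with at least 10 CPM, with 95% intervals, where those without a readable end are drawn as having no signal and Hist1h4i and Hist1h2be lie above 0 on both axes.

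Genes that act on histone RNA and histone genes differed less between the libraries than the members. In neural progenitor-like cells, 0 of 18 genes of histone mRNA 3′ end formation and decay were 1.5-fold higher or lower. The same held for 0 of 17 genes of histone gene transcription. Over all measured genes there, 5.9% were that much higher and 14.1% that much lower. The median log2 ratios of these lists were -0.05 and -0.07, beside -0.18 over all measured genes. TMM scaling adds 0.18 in these cells, which turns both medians positive, at 0.13 and 0.10. The lists share Npat and Casp8ap2. Slbp, which binds the stem-loop, had 206 CPM in NTD and 209 CPM in control (log2 -0.02, interval -0.11 to 0.08), and TMM scaling turns its sign. Npat, a coactivator of histone gene transcription, had 55.1 CPM in NTD and 73.7 CPM in control (log2 -0.42), and Casp8ap2, a processing factor known as FLASH, had 93.4 CPM in NTD and 96.1 CPM in control (log2 -0.04, a sign that also turns with TMM scaling). Lsm10, a protein of the U7 particle that cuts histone pre-mRNA, had a log2 ratio of 0.45, Sympk, a scaffold of that cleavage, -0.38, and Tut7, which adds uridines to histone mRNA, -0.22. Of the E2F factors, which act on genes of the G1 to S transition, the log2 ratios were -0.37 for E2f1, -0.28 for E2f2, -0.36 for E2f3 and -0.06 for E2f4, before the TMM shift and none past 1.5-fold.

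Histone variants were higher in NTD by a smaller median ratio than the members, and the chaperones varied. Of 24 genes of histone chaperones and import, 1 was at least 1.5-fold higher and 0 lower, beside 5.9% higher and 14.1% lower over all measured genes, with a median log2 ratio of 0.07. That gene was Set, with 709 CPM in NTD and 452 CPM in control (log2 0.65), followed by Npm1 at 0.52 and Nap1l1 at 0.51, which are also histone chaperones. Nasp, which guards soluble H3 and H4, had 787 CPM in NTD and 771 CPM in control (log2 0.03). Of 11 variants listed as replication-independent, 2 were at least 1.5-fold higher and 0 lower, beside the same shares, with a median of 0.43. These were H2afz, with 2557 CPM in NTD and 1641 CPM in control (log2 0.64), and H2afv, with 660 CPM in NTD and 439 CPM in control (log2 0.59), which both encode H2A.Z. H3f3a, a gene of the variant H3.3, had 1577 CPM in NTD and 1052 CPM in control (log2 0.58). The median log2 ratio of the members in these cells was 1.18, but some members lay below these variants, such as Hist1h4i (0.54) and Hist1h2be (0.53).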

How the data were processed

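Raw UMI counts per gene and barcode were used as deposited. Per the file headers, Cell Ranger 7.0.1 made them, and the submitters' processing notes name mm10 and STAR. Strand handling is not given in the sources used here.

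Cells needed 500 genes, 1000 UMIs and at most 10% mitochondrial UMIs. Doublets (Scrublet in scanpy 1.11.5, expected rate 0.8% per 1000 cells) were removed, 2399 in NTD and 3042 in control. Their number depended strongly on the random seed, and the seed kept was the one that matched the doublet counts of earlier processing of these data. Clusters came from leidenalg 0.10.2 (2000 variable genes without histone members, 30 components, 15 neighbours, resolution 1.0). Genes were not scaled to unit variance, a choice made after a trial with scaling split the low-UMI cluster. Clusters were named "X-like" from at least 3 markers with a lead of 2, and names may differ from the study's.

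CPM has exact Poisson 95% intervals, and log2 ratios (0.5 counts added) exact conditional binomial ones, for counting error only. Thinning to 1500 UMIs left out 3508 control cells and 0 NTD cells. TMM came from edgeR 4.0.16. Calculations were tested on simulated data.

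Named singly are members with at least 10 CPM in either library, Slbp, Nasp, Npat, Casp8ap2 and up to 3 further genes per list with at least 20 CPM and the log2 ratios farthest from 0, of either sign, in the progenitor-like class. Members, lists and markers were chosen with earlier results of these data known.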

Additional observations from a re-analysis of the deposited data

How the results depend on the processing

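No paired analysis was possible because each group has 1 library. With no replicates, a value was taken to hold when it stayed inside its counting interval, which is narrow for the sums. Every histone total and type kept its direction under each alternative run, but 34 of these 35 values left the counting interval and 1 stayed inside. The log2 ratio of the histone total was 1.11, and became 1.34 with TMM scaling, 1.17 with called doublets kept, 1.251 with the stricter cell filter, 1.28 in thinned cells, 1.04 without clusters from 1 library, 1.17 in S phase cells of progenitor-like cells, 1.17 outside cluster 0, 1.18 for the progenitor-like class, 1.35 for the neuron-like class and 0.73 in cluster 0. With TMM scaling, doublets kept, the stricter filter, thinned cells and no clusters from 1 library, H1 had 1.33, 1.17, 1.24, 1.28 and 1.02, H2a had 1.47, 1.32, 1.39, 1.43 and 1.16, and H3 had 1.40, 1.24, 1.36, 1.35 and 1.09. H4 had 1.23, 1.04, 1.14, 1.13 and 0.90, and H2b had 1.28, 1.10, 1.15, 1.20 and 1.02. The count of 50 members at least 1.5-fold higher ranged from 47 to 54 under TMM scaling, the cell settings and 1 added count, was 54 with a lower fold limit, 38 at 2-fold, 46 of 54 members with at least 100 UMIs over all barcodes, 51 of 65 with at least 1 UMI, and 29 of 37 with at most 50% shared windows, a choice made after seeing the data, as were the S list strata, the total by class or cluster 0, and the settings of the progenitor-like over neuron-like ratio. The progenitor-like over neuron-like ratio was 0.29 in NTD and 0.64 in control with doublets kept, and 0.14 in NTD when thinned. Thinning took the share of cells with Mki67 or Top2a to 61.5% in NTD and 65.9% in control cells of the progenitor-like class, to 41.2% in NTD and 32.8% in control for neurons, and to 59.7% in NTD and 61.8% in control cells of cluster 0, where unthinned shares were 68.6% in NTD and 56.5% in control and thinning kept 2684 NTD but 503 of 2839 control cells. TMM scaling took the median of the variants to 0.61 with 7 members past 1.5-fold, that of 3′ end formation and decay to 0.13 with 1 member, and the chaperones to 5 members. For the single members, 101 of 174 alternatives stayed inside the interval, 73 left it and 0 turned the direction. Causes were not tested. Another random seed gave other doublet calls, and of that choice the settings above show only the case with all doublets kept. Depth limits members with few UMIs: in each class, those under 20 UMIs were not counted.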

Other observations

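Other short genes without introns were also higher in NTD, by less than the histone members. Over all kept cells, the 360 measured protein-coding genes outside the histone members whose transcripts all had 1 exon had a median log2 ratio of NTD over control of 0.25 (quartiles -0.14 and 0.53), and 23.1% of them were at least 1.5-fold higher in NTD. The 15330 genes with more than 1 exon had a median of -0.22, and 4.30% were that much higher. By span, the median was 0.25 for the 381 genes under 2 kb, 0.04 for the 3384 genes of 2 to 10 kb and -0.27 for the 11925 genes of at least 10 kb. In neural progenitor-like cells the single-exon genes had a median of 0.28 and the genes with more exons -0.17. The histone members had a median of 1.13 over all kept cells and 1.18 in neural progenitor-like cells. This comparison was made after the histone values were seen, and its part in the difference between the libraries was not tested.

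Ribosomal protein genes took 12.7% of the UMIs of the kept cells in NTD and 8.35% in control. Outside cluster 0, their share and the histone level followed a similar order over the 10 classes with at least 100 cells in each library, with a Spearman rho of 0.71 in NTD and 0.73 in control, against 0.36 in NTD and 0.70 in control for the S list. The classes of a library share its depth, and free RNA was not measured, so these values describe the libraries only.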
